A study of Mus musculus with 60 samples.

Results

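Visceral white fat of sedentary mice was compared between 5 mice fed a high-fat diet (HFD) and 5 mice fed chow, by bulk 3′ RNA sequencing. These 10 libraries were chosen by tissue, diet and activity in the sample labels and are 10 of the 60 libraries of the series, which took 3 tissues from each of 20 mice. All were C57BL/6JN mice, 12 weeks old at collection. Chow mice ate a diet with 10% of energy from fat and HFD mice one with 60%, each for 6 weeks, and the sedentary mice had no wheel training. The remaining 10 visceral libraries came from mice on the same diets that also had access to a running wheel during the final 3 weeks. Both diet groups were fasted for 6 hours before collection, and per the labels wheels were locked 24 hours ahead as a wash-out. Mice are numbered here by the replicate number in the labels, which names a mouse within its group. The labels give each mouse its own code, so p-values measure the spread between mice.

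White adipocytes store triglyceride, take up fatty acids from the blood and make some of their own from glucose through citrate, acetyl-CoA and malonyl-CoA. They secrete hormones such as leptin and adiponectin, and their mitochondria supply the citrate for fatty acid synthesis. Visceral fat of obese mice is known for the gathering of macrophages around enlarged and dying adipocytes. All 10 libraries carried the adipocyte genes that this tissue should hold. Fabp4, the adipocyte fatty acid binding protein, was at 22795 to 27788 counts scaled to a library total of 1e+06 (CPM) on chow and at 21966 to 27579 on HFD. Plin1, which coats the lipid droplet, was at 62.8 to 105 and 43.3 to 99.98 CPM. Ucp1, the uncoupling protein of brown fat, had no read in any of the 10 libraries.

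Library totals ran from 580173 to 689060 counts, with 13436 to 14190 genes detected on chow and 14227 to 15405 on HFD. Some libraries stood apart in reads of genes of other organs, in stretches of consecutive library codes. The first 5 codes, which hold chow mice 1 to 3, carried 820 to 1088 reads of heart genes, and the next 12 codes, with chow mice 4 and 5 and HFD mice 1 to 4, carried 6 to 36. The last 3 codes, which hold HFD mouse 5, carried 269 to 392 reads of intestinal genes and 1944 to 2980 of skeletal muscle genes. HFD mouse 3 had the most reads of liver genes, 6155 or 0.927% of its counts, against 1012 to 2575 in the other 9. Liver genes were not confined to that mouse: 12 of 13 tested had a log2 fold change above 0 on HFD. Their median was 2.44, and 1.28 without HFD mouse 3 and 1.39 in the 12 codes. In the test described below none passed as higher and 1, Trf, passed as lower. Diet and library code are therefore partly confounded, and counts within the run of 12 codes, with 2 chow and 4 HFD mice, are given beside the lists described, with values for the genes that lead them. Values without HFD mouse 5 are given where they end a call or move a named gene by over 1.5 times in fold.

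Of 6990 genes tested, 563 (8.05%) passed an adjusted p of 0.05 in edgeR's quasi-likelihood test with Benjamini-Hochberg adjustment and are named called genes below, with 273 (3.91%) higher and 290 (4.15%) lower on HFD. Of these, 237 changed by at least 1 on the log2 scale. The filter on low counts keeps a gene with enough counts in as many libraries as 1 group holds, which is 5. A gene low on chow can thus be tested through its HFD libraries alone, which can tilt the counts and medians of lists with such genes upward. Fold changes were fitted after TMM scaling, which sets the bulk of genes to no change, and were lower by 0.20 on the log2 scale than on total counts. Single values for a gene below are log2 fold changes on the TMM scale, and CPM are on total counts. On total counts 823 genes passed, 680 higher and 143 lower, so 82.6% of calls were higher in place of 48.5%. Without HFD mouse 5 the count was 354, with the library run as a term it was 294, of which 228 were among the 563, and in the run of 12 codes alone it was 87 (1.13% of 7707 tested), of which 81 were among the 563. Of the 146 called genes that were chosen to be named, 144 could be tested in the run of 12 codes, where 46 were called. All 144 had the same sign there, in what is a subset of the same libraries.

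Lipogenic enzymes fell together. Of 18 tested genes of fatty acid synthesis, 13 were lower on HFD and none was higher, with a median log2 fold change of −1.56 against −0.01 over all tested genes. Acaca, acetyl-CoA carboxylase, which makes malonyl-CoA (ENSMUSG00000020532, mm10 chromosome 11, 84129672 to 84401651), was at 260.3, 277, 461, 454 and 196 CPM in chow mice 1 to 5 and at 56.8, 90.3, 64.7, 29.02 and 44.9 CPM in HFD mice 1 to 5. No HFD mouse reached the lowest chow mouse, and Acaca fell by 2.74 (SE 0.31, adjusted p = 2.19e-05). Fasn, fatty acid synthase (ENSMUSG00000025153, mm10 chromosome 11, 120805846 to 120824547), was at 693, 576, 1124, 952 and 301 CPM on chow and at 136, 239, 134, 126 and 185 CPM on HFD. The groups did not overlap, chow mouse 5 was the lowest of its group, and Fasn fell by 2.36 (SE 0.39, adjusted p = 0.00107). Elovl6, which elongates palmitate, was at 102, 55.3, 304, 162 and 43.05 CPM on chow and at 14.9, 22.6, 12.05, 24.7 and 20.9 CPM on HFD. It fell by 3.02 (SE 0.61, adjusted p = 0.00498), the largest change of the list.

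Acly, ATP citrate lyase, which splits cytosolic citrate into acetyl-CoA, was at 524, 182, 1177, 933 and 116 CPM on chow and at 114, 119, 87.3, 100.1 and 108 CPM on HFD. The HFD mice were close to each other while the chow mice were spread widely, and chow mouse 5 lay within the HFD range. Acly fell by 2.69 (SE 0.57, adjusted p = 0.00657). The citrate carrier Slc25a1 (1.51, adjusted p = 0.0162), malic enzyme Me1 (1.60, adjusted p = 0.0255) and the lipogenic regulator Thrsp (1.76, adjusted p = 0.00534) fell with it, and chow mouse 3 was the highest and chow mouse 5 the lowest in each of these and in Acly. Scd1, the desaturase that makes oleate, was the most abundant of the list, at 16029.7 to 27523 CPM on chow and 5505 to 16800.4 on HFD, and fell by 1.31 (SE 0.25, adjusted p = 0.00329). In Scd1 chow mouse 5 was the highest mouse, and HFD mouse 2 lay above chow mouse 1. The pentose phosphate enzymes Tkt (1.88, adjusted p = 0.000986) and Taldo1 (0.59, adjusted p = 0.00299) fell, whereas the 5 remaining genes did not pass, among them Pgd of the same pathway (−0.39, adjusted p = 0.342). The Me1 call was lost without chow mice 3 or 4 or HFD mice 1, 4 or 5. The transcription factors of this programme did not pass either: Srebf1 was at 0.03 (SE 0.27, adjusted p = 0.969) and Mlxipl, which encodes the glucose sensor ChREBP, at −0.77 (SE 0.41, adjusted p = 0.317). The summed level of the 20 listed genes was 24310 to 37840 CPM on chow and 9193 to 20870 on HFD, with Scd1 the largest part, so it follows Scd1 more than the other genes. In bulk tissue, fewer cells of a type and less RNA per cell cannot be told apart. Within the run of 12 codes 2 of these genes were called, with a median of −1.29. There Acaca was at −2.59 (adjusted p = 0.0355), Scd1 at −1.34 (adjusted p = 0.0112) and Fasn at −2.14 (adjusted p = 0.119).

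Since these genes moved together, the 300 bases around their start sites (250 before and 50 after) were read from the RefSeq promoter table (GRCm38.p6), which matched 12 of the 13 called genes. The only window for Acaca (chr11:84195188-84195487) lies well inside the gene span given above. It held none of the motifs below, and the start of that span was not searched. Motifs were searched on both strands. The NF-Y box CCAAT was in the promoters of 9 of the 12 (Acacb, Acly, Acss2, Fasn, Me1, Pcx, Slc25a1, Taldo1 and Thrsp), against 41.1% of all genes with a promoter in the table and 37.4% of all promoters. In Me1, on the minus strand, the match was in the window at chr9:86687228-86687527. The window upstream of it, at chr9:86695865-86696164, held no CCAAT. The E-box CACGTG was in 2 of the 12, Pcx and Slc25a1, against 8.09% of genes. The sterol element TCACNCCAC was in none of the 12 and in 1.44% of genes, and neither D-box was in any of them (TTATGTAA is in 1.11% of genes and TTACGTAA in 0.126%). Promoters of Fasn (chr11:120824498-120824797, minus strand), Acly (chr11:100527951-100528250, minus strand) and Slc25a1 (chr16:17928170-17928469, minus strand) are shown 5′ to 3′ along the gene's strand, as examples from the export and cleavage of citrate and the synthesis itself. Capitals mark CCAAT or its complement ATTGG, and in Fasn a pair of matches on opposite strands overlaps.
Fasn: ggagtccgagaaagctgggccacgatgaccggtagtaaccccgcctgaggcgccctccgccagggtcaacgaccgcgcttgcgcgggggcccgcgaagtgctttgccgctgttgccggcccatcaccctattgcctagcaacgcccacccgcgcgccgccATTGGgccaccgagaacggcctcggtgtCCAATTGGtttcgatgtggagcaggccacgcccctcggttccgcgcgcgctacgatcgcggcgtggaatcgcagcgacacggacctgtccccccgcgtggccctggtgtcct
Acly: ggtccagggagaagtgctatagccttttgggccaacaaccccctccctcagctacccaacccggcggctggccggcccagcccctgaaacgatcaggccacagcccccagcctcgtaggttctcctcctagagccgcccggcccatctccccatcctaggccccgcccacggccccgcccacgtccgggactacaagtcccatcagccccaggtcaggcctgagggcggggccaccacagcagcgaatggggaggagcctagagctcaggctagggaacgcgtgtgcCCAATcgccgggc
Slc25a1: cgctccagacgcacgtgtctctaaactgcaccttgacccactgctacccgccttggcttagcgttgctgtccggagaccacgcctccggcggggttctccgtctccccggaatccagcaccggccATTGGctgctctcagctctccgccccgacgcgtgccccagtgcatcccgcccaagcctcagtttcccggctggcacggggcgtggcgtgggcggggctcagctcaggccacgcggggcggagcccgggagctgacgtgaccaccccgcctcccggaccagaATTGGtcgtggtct
A match describes the letters in this window and is not a measured binding site.

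**Figure D1:**
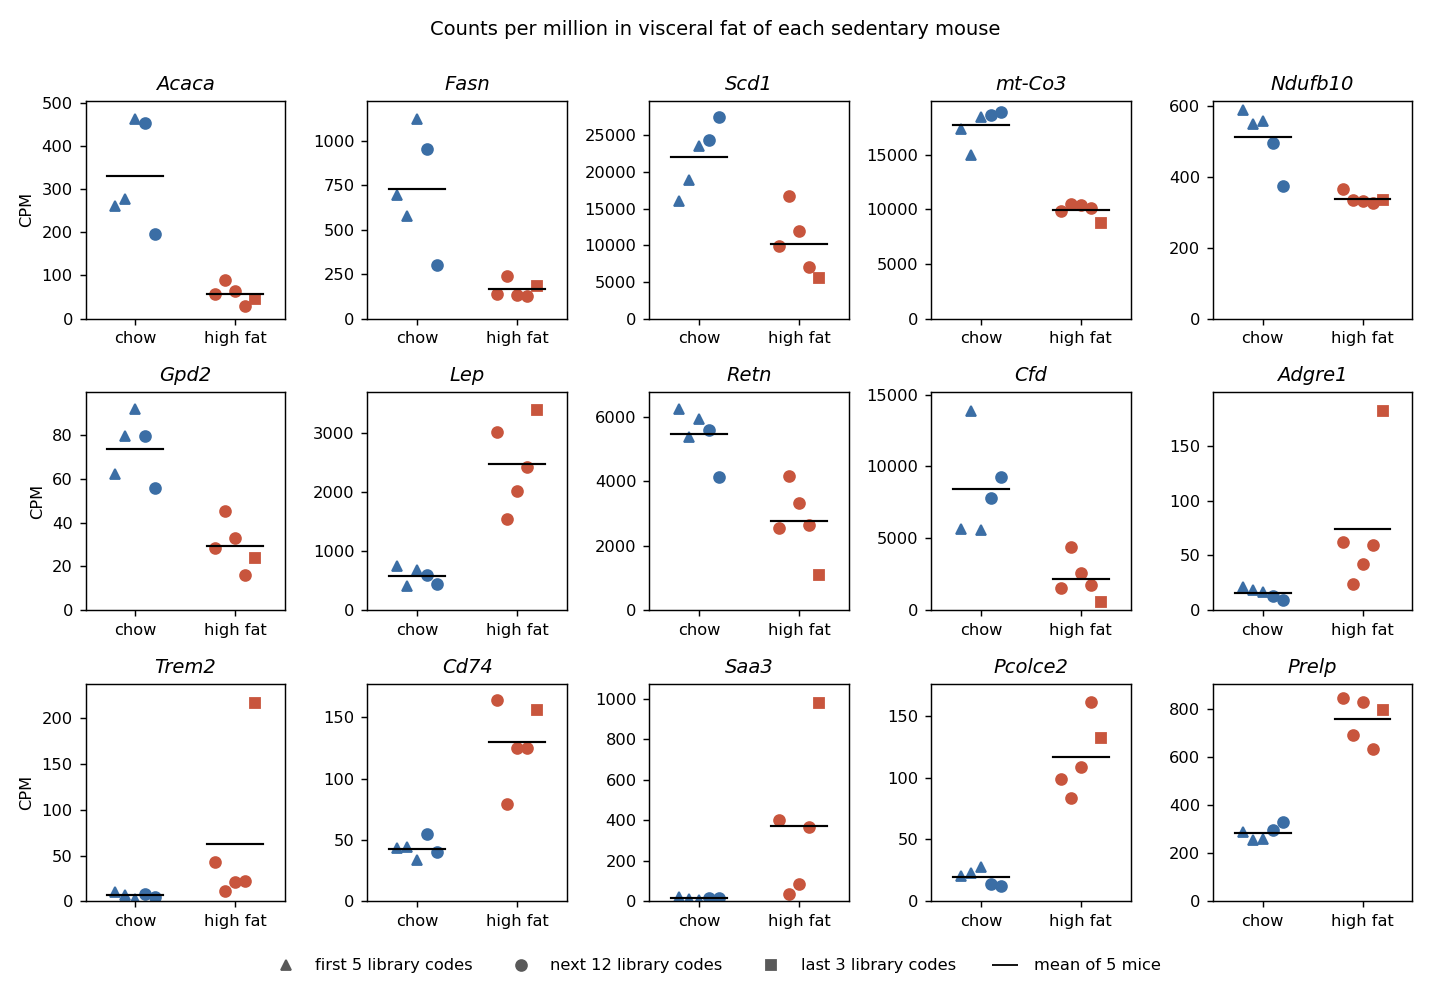
CPM (vertical axes, from 0) of 15 genes in visceral fat of each sedentary mouse, by diet, with mice 1 to 5 from left to right in each group, a bar for the mean and marker shapes for the stretch of library codes. Acaca and Fasn were lower in all 5 HFD mice than in any chow mouse, Lep was higher in all 5, and Trem2, Adgre1 and Saa3 were highest in HFD mouse 5, the square.

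Mitochondrial transcripts took a smaller share of the counts on HFD. The mitochondrially encoded genes held 12.9% to 18.9% of the counts on chow and 6.14% to 9.64% on HFD, 15.2 ± 2.20% against 8.12 ± 1.28% (SD, n = 5 each). The difference of −7.12 percentage points had p = 0.00794 in a two-sided exact permutation test, the smallest p that 5 against 5 mice allow. Without the ribosomal RNAs it was −4.30 points, with the same p. In the run of 12 codes it was −8.02 points, with 2 against 4 mice and p = 0.0667, the smallest that the exact test allows there.

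All 15 tested mitochondrially encoded genes fell, with a median of −1.04. mt-Co3, a subunit of cytochrome c oxidase, was at 17384, 14999, 18482, 18596 and 18910.0 CPM on chow and at 9803, 10463, 10371, 10095 and 8749 CPM on HFD. The lowest chow mouse was well above the highest HFD mouse, and mt-Co3 fell by 1.04 (SE 0.11, adjusted p = 1.3e-07). mt-Nd3, a complex I subunit, was at 1068 to 1537 and 535 to 682 CPM and fell by 1.22 (SE 0.13, adjusted p = 1.3e-07). mt-Atp6 of ATP synthase (1.09, adjusted p = 1.3e-07) and mt-Cytb of complex III (1.02, adjusted p = 1.06e-05) fell by similar amounts, and HFD mouse 5 was the lowest mouse in both. The ribosomal RNAs mt-Rnr1 (1.39, adjusted p = 0.00385) and mt-Rnr2 (1.39, adjusted p = 0.000607) fell, and chow mouse 5 was the highest mouse in mt-Rnr2, at 63707 CPM against 30342 to 36827 in the other chow mice. Gm29216, a nuclear copy of mitochondrial sequence, fell by 1.00 (SE 0.14, adjusted p = 8.6e-06). Its reads may be divided with the mitochondrial genes by the estimation. Of the 15, 13 were called in the run of 12 codes, with a median of −1.01, and all 15 without HFD mouse 5.

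Nuclear genes of the respiratory chain were lower too, by less. Of 37 nuclear complex I genes 27 fell, and of 38 tested genes of complexes II to V 29 fell, with medians of −0.48 and −0.51. None of these 75 had a fold change above 0. Ndufb10, a membrane-arm subunit of complex I, was at 589, 550.2, 559, 498 and 376 CPM on chow and at 368, 335, 331, 327 and 336 CPM on HFD. The 5 HFD mice were nearly level, chow mouse 5 came close to them, and Ndufb10 fell by 0.80 (SE 0.13, adjusted p = 0.000172). Sdhb, the iron-sulphur subunit of succinate dehydrogenase (0.80, adjusted p = 0.00141), Cox4i1 of cytochrome c oxidase (0.68, adjusted p = 0.000112), Uqcrc2 of complex III (0.64, adjusted p = 0.00837, lost without chow mouse 3) and Atp5c1 of ATP synthase (0.67, adjusted p = 0.000498) fell as well. The summed level of the nuclear genes was 42406 to 46548 CPM in chow mice 1 to 4, 33250 in chow mouse 5 and 33458 to 35411 in the 5 HFD mice, so chow mouse 5 lay below the lowest HFD mouse. On total counts 9 of 37 and 9 of 38 were called, with medians of −0.28 and −0.30. None of the 75 was called in the run of 12 codes, with medians of −0.25 and −0.27, and chow mouse 5 is 1 of the 2 chow mice there. Without HFD mouse 5, 19 and 24 were called. Chow mice 1 to 3 are also those with heart reads. The 12 listed heart genes held at most 0.148% of their counts, which leaves out reads of any other gene from heart. The part of heart RNA in these levels was not tested.

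Genes that feed carbon into the mitochondria also fell. In the list of pyruvate entry and its control, 5 of 11 fell and none rose (median −0.91). Mpc1, a subunit of the mitochondrial pyruvate carrier, was at 1339 to 3238 CPM on chow and 951 to 1227 on HFD and fell by 1.17 (SE 0.20, adjusted p = 0.000584). Pdha1, a catalytic subunit of pyruvate dehydrogenase, fell by 0.91 (SE 0.15, adjusted p = 0.000128). Pdhb (1.17, adjusted p = 0.00913), pyruvate carboxylase Pcx (1.10, adjusted p = 0.000892) and the pyruvate dehydrogenase kinase Pdk1 (1.10, adjusted p = 0.029) fell as well, with the Pdk1 call lost without chow mouse 3 or 4 or HFD mouse 2 or 5, and the kinases Pdk2 (−0.93, adjusted p = 0.0744) and Pdk4 (0.45, adjusted p = 0.425) did not pass. Of 18 tricarboxylic acid cycle genes 8 fell (median −0.45), among them the isocitrate dehydrogenase subunits Idh3b (0.82) and Idh3g (0.71) and citrate synthase Cs (0.63). Gpd2, the mitochondrial glycerol-3-phosphate dehydrogenase, which passes electrons from cytosolic NADH to the chain, was at 62.1, 79.8, 92, 79.6 and 55.8 CPM on chow and 28.4, 45.2, 33.1, 15.96 and 23.9 CPM on HFD. Every HFD mouse was below every chow mouse, and Gpd2 fell by 1.54 (SE 0.21, adjusted p = 1.06e-05). Sfxn1, the mitochondrial serine transporter, fell by 1.02 (SE 0.16, adjusted p = 8.52e-05).

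Fewer genes of fatty acid oxidation passed. Of 21 tested, 7 fell and none rose, with a median of −0.22, which was −0.02 on total counts. Carnitine acetyltransferase Crat (0.87), enoyl-CoA hydratase Echs1 (0.72) and electron-transfer flavoprotein Etfb (0.58) fell, while Cpt1a, which admits long-chain fatty acids to the mitochondrion, was at 0.53 (SE 0.19, adjusted p = 0.0915). Breakdown of branched-chain amino acids had 8 of 20 genes lower and none higher (median −0.44), with isovaleryl-CoA dehydrogenase Ivd (0.88, adjusted p = 0.00103), Mccc1 (0.79, adjusted p = 0.00229), Aldh6a1 (0.79, adjusted p = 0.00145) and Bckdha of the branched-chain ketoacid dehydrogenase (0.77, adjusted p = 0.0238) among them. The Bckdha call was lost without chow mouse 2 or HFD mice 1, 4 or 5. In the run of 12 codes 1 gene of oxidation and none of branched-chain breakdown was called, with medians of −0.11 and −0.45, and none of the pyruvate or cycle genes was.

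**Figure D2:**
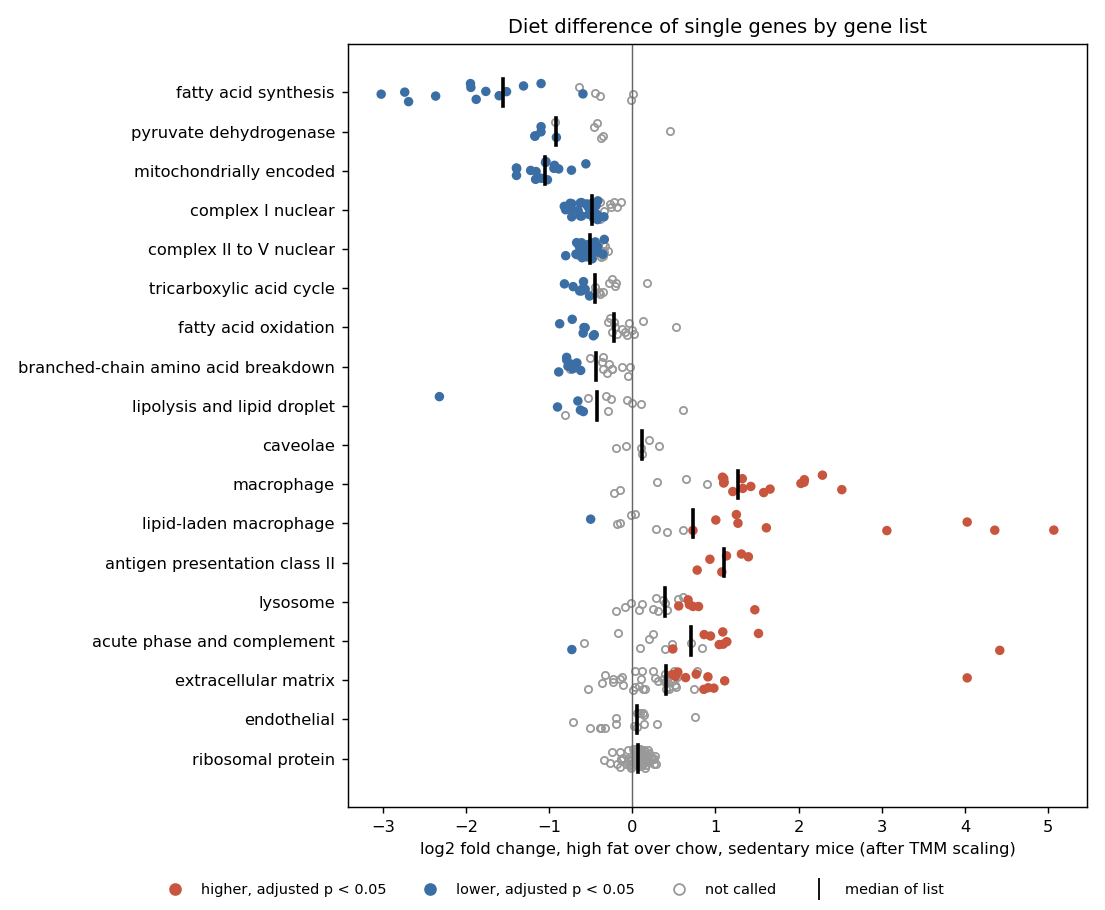
Log2 fold changes of HFD over chow in sedentary mice (horizontal axis) for the tested genes of 18 lists, 1 point a gene, filled where the gene was called and with a bar for the list's median. Fatty acid synthesis, pyruvate entry and mitochondrially encoded genes lie to the left with medians of −1.56, −0.91 and −1.04, the macrophage and class II lists to the right with 1.27 and 1.10, and ribosomal proteins at 0.08.

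The hormones that adipocytes secrete moved in different directions. Lep, leptin, the satiety signal (ENSMUSG00000059201, mm10 chromosome 6, 29060220 to 29073877), was at 752, 405, 676, 595 and 438 CPM on chow and at 3019, 1537, 2025, 2424 and 3398 CPM on HFD. The lowest HFD mouse was above the highest chow mouse, and Lep rose by 1.91 (SE 0.24, adjusted p = 7.08e-05). Retn, resistin, was at 6260.2, 5374, 5941, 5594 and 4146 CPM on chow and at 2553, 4175, 3337, 2637 and 1099 CPM on HFD, where HFD mouse 2 just reached chow mouse 5. Retn fell by 1.19 (SE 0.24, adjusted p = 0.00419). Cfd, adipsin, a complement protease made by adipocytes, was at 5628, 13835, 5584, 7826 and 9241 CPM on chow and at 1537, 4396, 2582, 1724 and 552 CPM on HFD. HFD mouse 5 had the least and mouse 2 the most of the HFD mice, and Cfd fell by 2.15 (SE 0.48, adjusted p = 0.00936). Adipoq, adiponectin, was at 6922 to 8113 and 4594 to 6929 CPM and fell by 0.47 (SE 0.13, adjusted p = 0.0186). Rbp4, a retinol carrier, fell by 0.76 (SE 0.21, adjusted p = 0.0314). Calls were lost when 1 mouse was left out for Adipoq (without chow mouse 2 or HFD mice 4 or 5) and Rbp4 (without chow mice 1, 2, 3 or 4 or HFD mice 1, 4 or 5), and on total counts 2 of the 4 lower hormone genes were called. In the run of 12 codes Lep (1.97, adjusted p = 0.00252) and Retn (−0.78, adjusted p = 0.026) were called, and Cfd was at −1.90 (adjusted p = 0.187).

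Of 6 genes of fat expansion 2 rose and none fell, with a median of 0.51. Sfrp5, a secreted inhibitor of Wnt signals, was at 5.84 to 24.1 CPM on chow and 67.2 to 119 CPM on HFD and rose by 2.42 (SE 0.32, adjusted p = 1.1e-05). Mest, an imprinted gene that tracks adipocyte enlargement, was at 54.6 to 147 CPM on chow and 347 to 643 CPM on HFD and rose by 2.12 (SE 0.34, adjusted p = 0.000892). Neither overlapped between diets, and Npr3, Sncg, Nnmt and Bmp3 lay between 0.27 and 0.59 without passing. On total counts 5 of the 6 were called. The run of 12 codes gave 1 call, Sfrp5 at 2.29 (adjusted p = 0.0123), and Mest was at 2.23 (adjusted p = 0.068). None of the 6 tested genes of the caveolae, the membrane pits of fat cells, was called, with a median of 0.11.

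Genes of fat release and insulin-driven uptake changed in part. In the lipolysis and lipid droplet list 5 of 14 fell and none rose: Cidea (2.32, adjusted p = 0.00205), a droplet protein, Adrb3, the beta-3 adrenergic receptor (0.90, adjusted p = 0.0402), Pde3b, the phosphodiesterase through which insulin restrains lipolysis (0.65, adjusted p = 0.00769), Pnpla2, adipose triglyceride lipase (0.62, adjusted p = 0.00498), and Plin1 (0.59, adjusted p = 0.0493). Calls were lost when 1 mouse was left out for Adrb3 (without chow mice 1, 2, 3, 4 or 5 or HFD mice 1, 4 or 5) and Plin1 (without chow mice 1, 2, 4 or 5 or HFD mice 1, 4 or 5), and on total counts 2 of the 5 were called. None of the list was called in the run of 12 codes, with a median of −0.31, Cidea at −1.63 (adjusted p = 0.402) and Pnpla2 at −0.31 (adjusted p = 0.482), and 1 was with the library run as a term. Hormone-sensitive lipase Lipe was at −0.54 (SE 0.18, adjusted p = 0.0604). Slc2a4, the insulin-responsive glucose transporter GLUT4, was at 53.4, 45.6, 59.9, 49.9 and 51.02 CPM on chow and 32.9, 40.3, 33.1, 29.02 and 29.9 CPM on HFD. All HFD mice were below all chow mice, and Slc2a4 fell by 0.86 (SE 0.19, adjusted p = 0.00385). It was at −0.74 (adjusted p = 0.204) in the run of 12 codes, not called. Irs1, the insulin receptor substrate, was at −0.82 (SE 0.29, adjusted p = 0.0847). Fatty acid uptake had no called gene among 12. Its lipase Lpl was at −0.15 (SE 0.14, adjusted p = 0.625), which is 0.05 on total counts, and the fatty acid translocase Cd36 was at 0.03 (SE 0.10, adjusted p = 0.92). Of the adipogenic transcription factors, Pparg, the master regulator of fat cell identity, was at −0.31 (SE 0.13, adjusted p = 0.148), and only Rxrg among 13 tested was called (1.03, adjusted p = 0.0243). The Rxrg call was lost without chow mice 1 or 3 or HFD mice 1, 4 or 5.

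Macrophage genes rose. Of 20 tested macrophage markers 15 were higher on HFD and none was lower, with a median of 1.27. Markers low on chow could pass the filter through HFD libraries, which can tilt this count and median upward. Adgre1, which encodes the macrophage surface protein F4/80, was at 20.7, 17.9, 16.1, 12.5 and 9.57 CPM on chow and at 62.7, 24.2, 42.2, 59.5 and 182 CPM on HFD. The groups did not overlap, but HFD mouse 2 was near the chow mice and HFD mouse 5 was far above the other four. Adgre1 rose by 2.06 (SE 0.47, adjusted p = 0.00844). Ctss, cathepsin S, was at 82.7, 66.7, 77.4, 68.7 and 79.7 CPM on chow and at 478, 145, 238, 374 and 1254 CPM on HFD, again lowest in HFD mouse 2 and highest in mouse 5, and rose by 2.52 (SE 0.46, adjusted p = 0.00266). Cd68, an endosomal protein of macrophages (2.29, adjusted p = 0.0162), Mpeg1 (2.07, adjusted p = 0.00782), the signalling adaptor Tyrobp (1.66, adjusted p = 0.0128), lysozyme Lyz2 (1.58, adjusted p = 0.0145) and the Fc receptor chain Fcer1g (1.42, adjusted p = 0.00348) rose as well. Ccr2, the receptor that draws monocytes into tissue, was at 20.4 to 34.3 and 35.5 to 92.7 CPM and rose by 1.10 (SE 0.24, adjusted p = 0.003). Mrc1, the mannose receptor of resident macrophages, was at 0.65 (SE 0.22, adjusted p = 0.0718) and the haemoglobin scavenger receptor Cd163 at −0.22 (SE 0.29, adjusted p = 0.762). The summed level of the 23 markers was 1766 to 2996 CPM on chow and 5986, 4236, 4666, 6031 and 9658 CPM in HFD mice 1 to 5. Without HFD mouse 5, 16 markers were called with a median of 1.03, and Adgre1 was at 1.43 (adjusted p = 0.00425), Ctss at 1.85 (adjusted p = 0.00204), Cd68 at 1.39 (adjusted p = 0.019) and Mpeg1 at 1.40 (adjusted p = 0.0086). The run of 12 codes gave 3, with a median of 1.01, among them Adgre1 at 1.93 (adjusted p = 0.0207) and Fcer1g at 1.16 (adjusted p = 0.0439). HFD mouse 5 is also the mouse with intestinal and muscle reads, and their part in its macrophage level was not tested.

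Of 17 tested genes of lipid-laden macrophages, 9 rose and 1 fell (median 0.73). Members low on chow, among them Trem2, Gpnmb and Atp6v0d2, could pass the filter through HFD libraries, which tilts this count and median upward. Trem2, the lipid-sensing receptor of these cells, was at 10.3, 6.51, 2.92, 7.80 and 4.78 CPM on chow and at 43.3, 11.3, 21.1, 21.8 and 217 CPM on HFD. HFD mouse 5 held most of the signal, with the other four between 11.3 and 43.3, and Trem2 rose by 3.06 (SE 0.82, adjusted p = 0.0273). Gpnmb, a lysosomal glycoprotein, was at 0, 4.88, 1.46, 12.5 and 7.97 CPM on chow and at 105, 24.2, 39.1, 42.1 and 449 CPM on HFD and rose by 4.36 (SE 0.96, adjusted p = 0.00857). Mmp12, macrophage elastase (4.03, adjusted p = 0.00573), and Atp6v0d2, a subunit of the macrophage proton pump (5.07, adjusted p = 0.00603), rose with the same high mouse. Each chow library of Atp6v0d2 lay below the level of 3 counts, at 0 to 3.19 CPM, so its fitted fold is no bound. Galectin-3 gene Lgals3 (1.61, adjusted p = 0.026), lysosomal acid lipase Lipa (1.27, adjusted p = 0.0143), cathepsin K gene Ctsk (1.25, adjusted p = 0.00647) and Cd9 (1.00, adjusted p = 0.000498) rose, and Apoe, which adipocytes also express, fell by 0.50 (SE 0.14, adjusted p = 0.026). Itgax, which encodes CD11c, was too low to test, at 0 to 4.78 CPM on chow and 6.45 to 26.9 on HFD. Without HFD mouse 5, 6 of the list were higher and none was lower, and Trem2 was at 1.72 (adjusted p = 0.0199), Gpnmb at 3.06 (adjusted p = 0.0143), Mmp12 at 3.09 (adjusted p = 0.0156), Atp6v0d2 at 3.89 (adjusted p = 0.000843) and Lgals3 at 0.95 (adjusted p = 0.0599). Calls were lost when 1 mouse was left out for Trem2 (without chow mice 2, 3, 4 or 5), Lgals3 (without chow mice 2, 3, 4 or 5 or HFD mouse 5), Ctsk (without HFD mouse 5) and Apoe (without chow mice 2 or 5 or HFD mice 1, 2, 4 or 5). None was called in the run of 12 codes, with a median of 0.68, and Trem2 was at 1.77 (adjusted p = 0.197). Of 19 lysosomal genes 6 rose and none fell (median 0.40), led by legumain Lgmn (1.47, adjusted p = 0.00246), with progranulin gene Grn (0.67, adjusted p = 0.00491) and Psap (0.69, adjusted p = 0.00144). Without HFD mouse 5, 3 were called, and in the run of 12 codes 1 was, Lgmn at 1.37 (adjusted p = 0.0263).

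All 6 tested genes of class II antigen presentation rose, with a median of 1.10. Cd74, the invariant chain, was at 43.1, 43.95, 33.6, 54.6 and 39.9 CPM on chow and at 164, 79.02, 125, 125 and 155 CPM on HFD. The HFD mice were all above the chow mice, mouse 2 least, and Cd74 rose by 1.40 (SE 0.23, adjusted p = 0.000144). H2-Aa (1.13, adjusted p = 0.00149) and H2-Ab1 (0.93, adjusted p = 0.000152), the chains of the class II molecule, rose too, and all 6 were called without HFD mouse 5 as well. The run of 12 codes gave 1 call, with a median of 0.88, and Cd74 was at 1.23 (adjusted p = 0.0257). Among 10 tested chemokines and cytokines 5 rose: Ccl8 (2.25, adjusted p = 0.0401), Ccl2 (2.15, adjusted p = 0.0106), Ccl7 (2.08, adjusted p = 0.00393), Ccl9 (1.61, adjusted p = 0.0086) and the eosinophil chemoattractant Ccl11 (0.63, adjusted p = 0.0395), and Cxcl9 fell (0.74, adjusted p = 0.0421). The list holds 24 genes, and those low on chow could pass the filter through HFD libraries, which can tilt this count upward. Ccl2, which recruits monocytes through Ccr2, was at 49.99, 8.14, 16.1, 9.36 and 19.1 CPM on chow and at 139, 35.5, 46.7, 116 and 184 CPM on HFD. The ranges overlapped through chow mouse 1. None of these chemokines was called in the run of 12 codes, with Ccl2 at 2.40 (adjusted p = 0.139), Ccl7 at 2.07 (adjusted p = 0.205) and Ccl9 at 1.41 (adjusted p = 0.223). With the library run as a term 1 of the list was higher and 1 lower, and without HFD mouse 5, 3 were higher and none lower. Calls were lost when 1 mouse was left out for Ccl8 (without chow mice 1, 2, 4 or 5 or HFD mice 1, 4 or 5), Ccl11 (without chow mice 2, 3, 4 or 5 or HFD mice 1, 4 or 5) and Cxcl9 (without chow mice 2, 3, 4 or 5 or HFD mice 1, 2, 3 or 5). Tnf had 7 reads over the HFD and 1 over the chow libraries, a ratio of 6.65 with a 95% counting interval from 0.855 to 299.8. Il6 had none in any of the 10, and a count of 0 allows up to 4.35 to 5.17 CPM per library. No endothelial gene (of 17), no mesothelial gene (of 7), no mesenchymal progenitor gene (of 10) and none of the 76 ribosomal protein genes was called, with medians of 0.06, −0.11, 0.16 and 0.08. The summed level of the 18 listed mesothelial genes, tested or not, was 409 to 770.5 CPM on chow and 726 to 1518 on HFD. On total counts 13 ribosomal protein genes were called higher, with a median of 0.28.

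Of 19 tested acute phase and complement genes, 9 were higher and 1 lower (median 0.71). Hp, haptoglobin, which binds free haemoglobin, was at 2092, 2188, 2097, 1907 and 2129 CPM on chow and at 7138, 4067, 4226, 7812 and 11092 CPM on HFD. The chow mice were nearly level and the HFD mice were all higher, and Hp rose by 1.52 (SE 0.21, adjusted p = 8.36e-05). Cfb, complement factor B, was at 133, 120.5, 112, 96.7 and 142 CPM on chow and 329, 261, 301, 366 and 269 CPM on HFD and rose by 1.14 (SE 0.14, adjusted p = 2.26e-06). Saa3, serum amyloid A of fat and macrophages, was at 22.4, 9.77, 7.30, 17.2 and 19.1 CPM on chow and at 400.4, 37.1, 87.3, 367 and 979 CPM on HFD. HFD mouse 2 was the lowest and mouse 5 the highest of the HFD mice, and Saa3 rose by 4.42 (SE 0.79, adjusted p = 0.00206). Lbp, which binds lipopolysaccharide (1.04, adjusted p = 0.000668), C4b (0.86, adjusted p = 0.0109), the C1 inhibitor Serping1 (1.09, adjusted p = 0.0259) and C1qb (1.09, adjusted p = 0.0192) rose, and ceruloplasmin Cp fell (0.73, adjusted p = 0.016). Calls were lost when 1 mouse was left out for Serping1 (without chow mice 1, 2 or 3 or HFD mice 1, 4 or 5), C1qb (without chow mice 2 or 5) and Cp (without HFD mouse 5). Lrg1, a secreted glycoprotein of the acute phase outside that list, rose by 1.55 (SE 0.23, adjusted p = 6.97e-05). In the run of 12 codes 3 of the 20 list genes tested there were called, with Hp at 1.37 (adjusted p = 0.0102), Cfb at 1.24 (adjusted p = 0.00115) and Saa3 at 3.46 (adjusted p = 0.274). Without HFD mouse 5 Saa3 was at 3.70 (adjusted p = 0.00483). The part of liver reads in the levels of these genes was not tested.

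Of 45 tested matrix genes, 11 rose and none fell (median 0.40), and on total counts 18 rose. Pcolce2, an enhancer of procollagen processing outside that list (ENSMUSG00000015354, mm10 chromosome 9, 95637601 to 95698096), had the lowest adjusted p of the higher genes. It was at 20.7, 22.8, 27.7, 14.04 and 12.8 CPM on chow and at 98.6, 83.9, 108, 161 and 132 CPM on HFD, with no overlap, and rose by 2.36 (SE 0.26, adjusted p = 5.19e-07). Prelp, a leucine-rich proteoglycan that anchors basement membranes, is also outside that list. It was at 288, 257, 261, 295 and 330 CPM on chow and at 847, 693, 829.6, 633 and 795 CPM on HFD and rose by 1.21 (SE 0.15, adjusted p = 1.55e-06). Within the list the following genes were among those called. Col6a1, a chain of collagen VI, which surrounds adipocytes (1.11, adjusted p = 0.000173), lumican Lum (0.98, adjusted p = 0.00125), periostin Postn (0.91, adjusted p = 0.000151) and Col3a1 (0.64, adjusted p = 0.00145) rose. Col1a1 rose by 0.91 (SE 0.26, adjusted p = 0.0346). The Col1a1 call was lost without chow mice 1, 3 or 4 or HFD mice 1, 2, 4 or 5. Col6a3 was at 0.40 (SE 0.20, adjusted p = 0.248) and Dpt, dermatopontin, at −0.33 (SE 0.15, adjusted p = 0.196). The summed level of the 48 listed genes was 8220 to 10794 CPM on chow and 12684 to 15475 on HFD. The run of 12 codes gave 4 calls in the list, with a median of 0.41. Outside the list, Pcolce2 was at 2.90 (adjusted p = 0.00169) and Prelp at 1.11 (adjusted p = 0.00139) there.

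In the list of oxidative stress and xenobiotic genes 8 of 26 fell and 2 rose (median −0.18). On total counts these counts became 5 and 4 (median 0.02), and in the run of 12 codes 2 and 1. Fmo1, a flavin-containing monooxygenase, was at 147, 148, 202, 148 and 137 CPM on chow and at 92.6, 77.4, 79.8, 72.6 and 50.8 CPM on HFD, and fell by 1.27 (SE 0.17, adjusted p = 5.46e-06). The glutathione transferases Gsta3 (1.39, adjusted p = 0.000282) and Gsta4 (1.35, adjusted p = 0.0029) and the cytochrome Cyp2e1 (1.65, adjusted p = 0.0165) fell, while extracellular superoxide dismutase Sod3 (0.85, adjusted p = 0.000152) and Gstm1 (0.49, adjusted p = 0.0262) rose. Outside the list, the calcium-binding S100a1 was at 411 to 573 CPM on chow and 135 to 266 CPM on HFD and fell by 1.47 (SE 0.18, adjusted p = 3.95e-06), and the pantetheinase Vnn3 fell by 2.23 (SE 0.32, adjusted p = 1.66e-05). Hsd11b1, which regenerates active glucocorticoid, fell by 1.16 (SE 0.19, adjusted p = 0.000202) and was the only called gene of 11 in the glucocorticoid and metallothionein list. Of 16 unfolded protein response genes Hspa5 (0.48, adjusted p = 0.029) and Manf (0.83, adjusted p = 0.0122) rose and asparagine synthetase Asns fell (0.90, adjusted p = 0.00987), and calls were lost when 1 mouse was left out for Hspa5 (without chow mice 2, 3 or 4 or HFD mice 1, 4 or 5), Gstm1 (without chow mice 2, 4 or 5 or HFD mice 1, 3 or 5), Cyp2e1 (without HFD mouse 4), Tef (without chow mouse 5 or HFD mice 4 or 5) and Pmvk (without chow mouse 3). Of 8 tested clock genes 1, Tef, was called (1.06, adjusted p = 0.0211), and of 11 cholesterol synthesis genes 1, Pmvk (0.86, adjusted p = 0.00867). Called in the run of 12 codes were Hsd11b1 (−1.10, adjusted p = 0.00354), S100a1 (−1.14, adjusted p = 0.00508), Vnn3 (−2.22, adjusted p = 0.0085) and Fmo1 (−0.98, adjusted p = 0.0112), and no gene of the unfolded protein, clock or cholesterol lists was. The heart genes Myl3 and Tnni3 were called lower as well, with levels of 333, 376, 333, 0 and 1.59 CPM for Myl3 and 236, 241, 221, 0 and 0 CPM for Tnni3 in chow mice 1 to 5, and with the library run as a term they were at 1.14 and 1.95. Both calls were lost when any 1 mouse other than chow mouse 4 or 5 was left out.

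**Figure D3:**
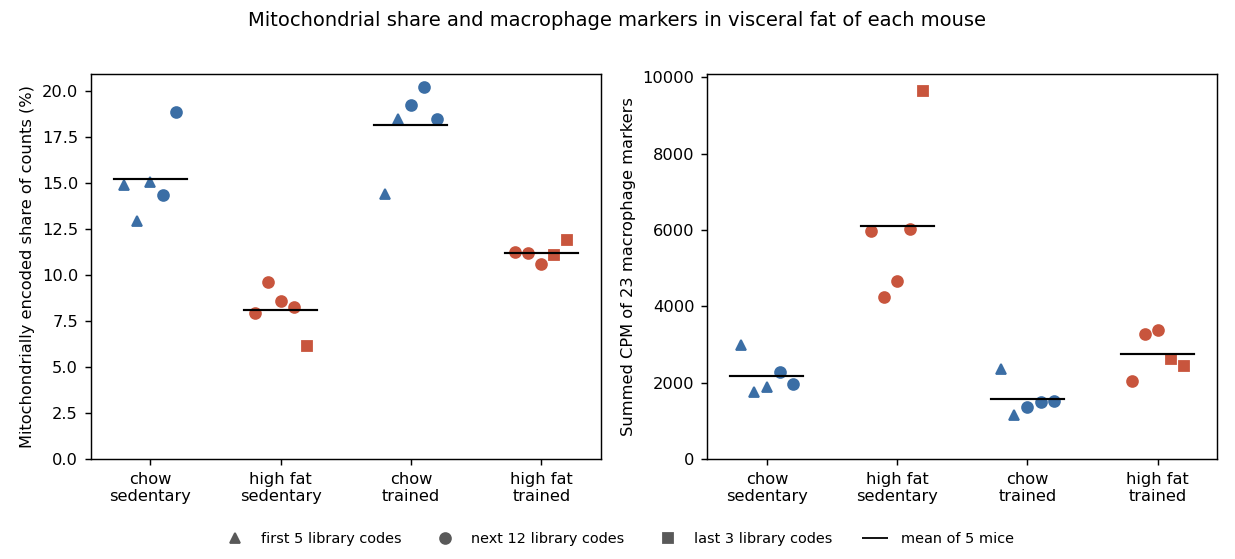
Mitochondrially encoded share of counts in percent (left) and summed CPM of 23 macrophage markers (right) in visceral fat of each mouse of the 4 groups, with a bar for the mean and marker shapes for the stretch of library codes. The share was 6.14% to 9.64% in sedentary HFD mice and 12.9% to 18.9% in sedentary chow mice, and the macrophage sum was highest in sedentary HFD mouse 5 at 9658 CPM.

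The same diets in mice that ran gave fewer called genes. In trained mice 183 genes (2.62%) passed, 84 higher and 99 lower. Of the 563 genes called in sedentary mice, 112 were also called in trained mice, all in the same direction, which is 19.9% of the sedentary and 61.2% of the trained calls. A total of 513 (91.1%) had the same sign in trained mice, against 63.5% of all tested genes. Diet and library code were partly confounded in the same way there. Chow trained mice 1 and 2 are in the first 5 codes and HFD trained mice 4 and 5 in the last 3. In this agreement of signs, diet and library code cannot be told apart. The test of the difference between the diet effects called 1 gene (0.0143%), while 487 had an unadjusted p under 0.05. That gene was Dpt, at −0.33 in sedentary and 0.91 in trained mice, a difference of 1.24 (SE 0.21, adjusted p = 0.0115). DESeq2 called 11 genes and limma voom 1. Dpt differed by 1.29 (adjusted p = 0.24) in the run of 12 codes, not called, and the 1 gene called there was a different one.

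In trained mice 12 of the 18 fatty acid synthesis genes were lower, with a median of −1.50. Acaca was at −2.53 (adjusted p = 4.09e-05) and Fasn at −2.07 (adjusted p = 0.00529) there. The mitochondrially encoded genes had 14 of 15 lower with a median of −0.83, and the nuclear complex I genes 4 of 37 with a median of −0.28. None of the 20 macrophage markers was called in trained mice, with a median of 0.54, and Adgre1 was at 0.72 (adjusted p = 0.623) and Ctss at 1.03 (adjusted p = 0.359). No gene of these lists had a called difference between sedentary and trained mice, so a difference in diet effect was not shown for them. The summed macrophage level was 1141 to 2363 CPM on chow and 2043 to 3371 CPM on HFD in trained mice. Retn was at −0.18 (adjusted p = 0.811), Cfd at −0.77 (adjusted p = 0.508) and Lep at 1.64 (adjusted p = 0.000588). The mitochondrial share was 14.4% to 20.2% on chow and 10.6% to 11.9% on HFD in trained mice.

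**Figure D4:**
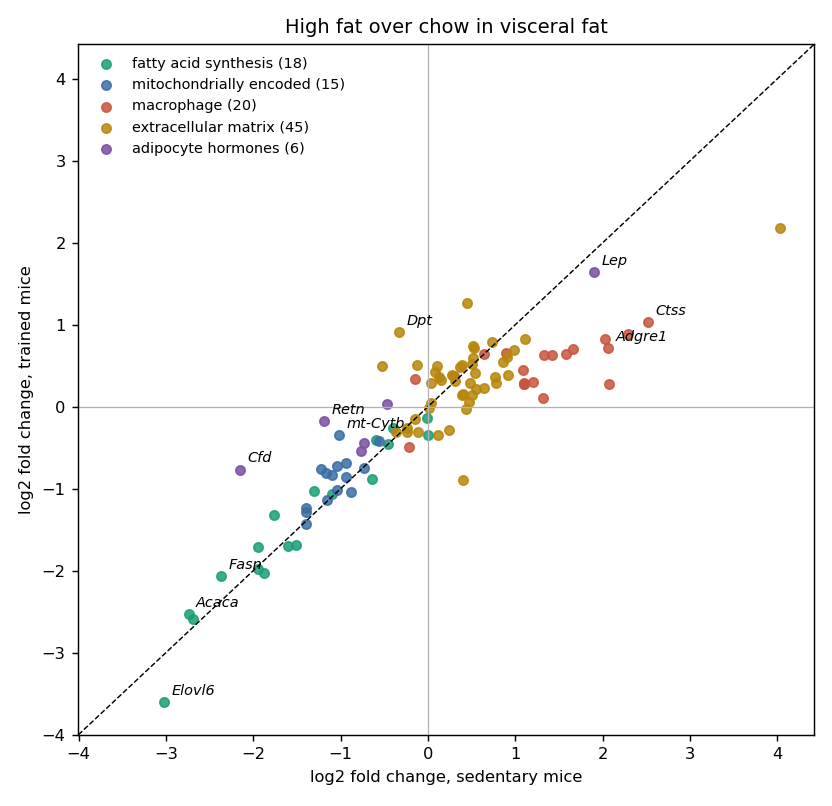
Log2 fold change of HFD over chow in visceral fat of sedentary (horizontal axis) and trained mice (vertical axis) for the tested genes of 5 lists, with a dashed line at equal values. Acaca lies near the line at −2.74 and −2.53, and the macrophage genes Ctss and Adgre1 lie below it at 2.52 and 1.03, and at 2.06 and 0.72.

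The subcutaneous fat of the same 10 sedentary mice gave 449 called genes of 7069 (6.35%). Of the 519 visceral calls that were tested in both depots, 150 were also called there, all in the same direction, which is 28.9% of those 519 and 33.4% of the subcutaneous calls. The test of the difference between the depots, fitted with each animal as a block, called 82 of 7131 genes (1.15%), 26 with a higher value in visceral fat and 56 with a lower one. That count ran from 32 to 204 when 1 animal was left out and was 19 without the animal block. Subcutaneous libraries of chow mice 2, 4 and 5 held 495 to 1043 reads of B cell genes other than Ighm and 438 to 1108 of lymph node stroma genes, against at most 47 and 19 in the other 7. In visceral libraries these were 6 to 297 and 5 to 181. Their part in the depot difference was not tested.

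The diet effect on the adipocyte hormones Cfd and Retn differed between the depots, and less firmly that on Lep. Cfd was at 5584 to 13840 CPM on chow and 552 to 4396 on HFD in visceral fat, and at 6910 to 10760 and 2433 to 10590 CPM in subcutaneous fat. The HFD effect in visceral fat minus that in subcutaneous fat was −1.70 (SE 0.27, adjusted p = 0.00334). Retn was at 1706 to 2792 CPM on chow and 2558 to 3474 on HFD in subcutaneous fat, and the difference between the depots was −1.52 (SE 0.26, adjusted p = 0.00378). Lep rose in both depots and by less in visceral fat, with a difference of −1.02 (SE 0.25, adjusted p = 0.0469), and subcutaneous chow mice had 109 to 392 CPM against 405 to 752 in visceral fat. The Lep call was lost in 7 of 10 fits that left out 1 animal. Subcutaneous chow mice 2, 4 and 5, those with lymph node reads, had 133, 133 and 109 CPM of Lep, and mice 1 and 3 had 392 and 282. In Retn mice 2, 4 and 5 had 1706, 1890 and 1913 CPM, and mice 1 and 3 had 2792 and 2667, within the subcutaneous HFD range. Mest and Fmo1 were likewise lower in chow mice 2, 4 and 5, whereas in Cfd and Elovl6 these mice overlapped mice 1 and 3. The part of lymph node reads was not tested. Mest also rose in both depots and by less in visceral fat, at −1.19 (SE 0.27, adjusted p = 0.0275). Elovl6 fell in both depots and by less in visceral fat, at 1.70 (SE 0.28, adjusted p = 0.00378). Its subcutaneous chow level was 141 to 1262 CPM and its HFD level 14.04 to 28.5, close to the visceral HFD level of 12.1 to 24.7. Fmo1 was at 93.0 to 153 CPM on chow and 89.0 to 256 on HFD in subcutaneous fat, and the depot difference was −1.29 (SE 0.23, adjusted p = 0.00707).

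Some matrix and membrane genes rose in subcutaneous fat and did not pass the test in visceral fat. Efemp1, a matrix fibulin, was at 21.8 to 52.5 CPM on chow and 136 to 226 on HFD in subcutaneous fat, and at 152 to 228 and 221 to 317 CPM in visceral fat, a depot difference of −2.05 (SE 0.26, adjusted p = 0.000303). Cavin3, a coat protein of caveolae, gave −1.81 (SE 0.28, adjusted p = 0.00249) and Dpt −1.30 (SE 0.25, adjusted p = 0.0108). In subcutaneous fat, chow mice 2, 4 and 5 were below mice 1 and 3 in Efemp1 and Cavin3 and overlapped them in Dpt. The part of lymph node reads in these values was not tested. Soat1, which esterifies cholesterol, was at 1.63 to 6.24 CPM on chow and 14.5 to 76.2 on HFD in visceral fat, and at 2.78 to 23.75 and 1.58 to 17.2 CPM in subcutaneous fat. Its depot difference was 3.80 (SE 0.62, adjusted p = 0.00372), and its visceral change of 3.03 was 2.40 (adjusted p = 0.00353) without HFD mouse 5. In the run of 12 codes the visceral change was 1.89 (adjusted p = 0.207), not called. Every visceral chow mouse except mouse 4 lay below the level of 3 counts, so the fitted folds of Soat1 are no bounds. When 1 of the 10 animals was left out, the depot call was lost for Mest without chow mouse 2, 4 or 5 or HFD mouse 5, with adjusted p up to 0.121, and for Lep without chow mouse 2, 4 or 5 or HFD mouse 1, 2, 4 or 5, with adjusted p up to 0.156. Cfd, Retn, Elovl6, Fmo1, Efemp1, Cavin3, Dpt and Soat1 stayed called in each fit in which they were tested, and Soat1 was not tested in 1 of the 10. Macrophage genes had a median depot difference of 0.77, with 1 of 21 called higher and 1 lower, and the class II genes 1.15, with none of 6 called. The summed macrophage level in subcutaneous fat was 621 to 2582 CPM on chow and 1412 to 3385 on HFD, and the 3 chow libraries with lymph node reads had 1119 to 2582.

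**Figure D5:**
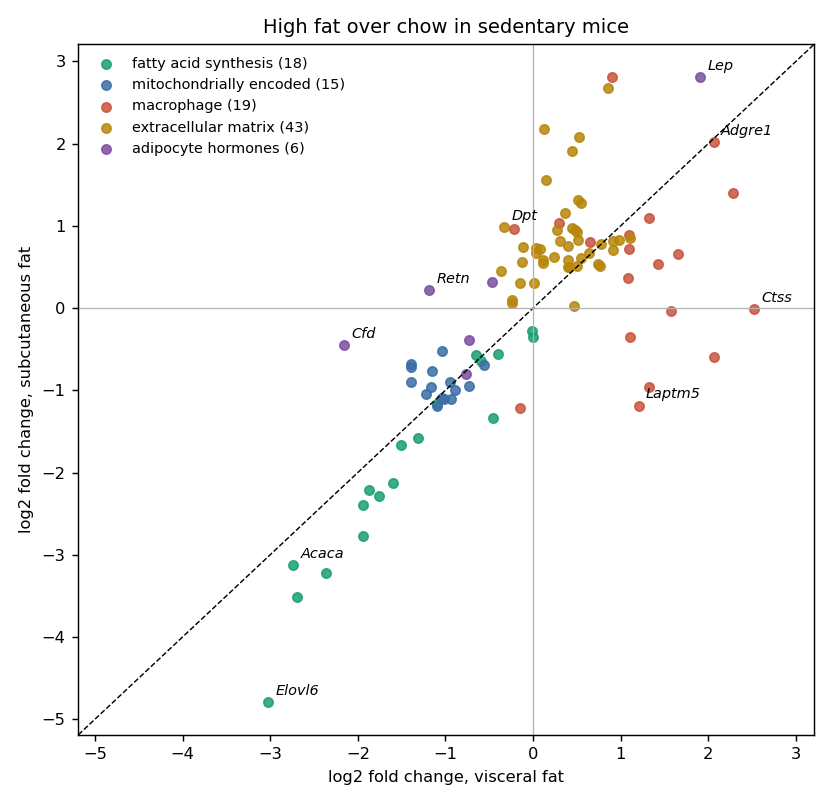
Log2 fold change of HFD over chow in sedentary mice in visceral (horizontal axis) and subcutaneous fat (vertical axis), each from the fit of its own depot, for the genes of 5 lists tested in both, with a dashed line at equal values. Elovl6 lies below the line at −3.02 and −4.79, Cfd and Retn lie above it, and the macrophage gene Ctss lies to its right at 2.52 and −0.01.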

How the data were processed

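Bulk 3′ RNA sequencing counts of visceral fat were analysed. Per the submitters' processing notes, reads were quantified with Salmon 0.14.2 against mm10. The authors deposited estimated counts, already rounded to whole numbers, and log2 values of CPM plus 1, which were used only as a check. Here, genes were filtered by edgeR's filterByExpr over all 20 visceral libraries in 4 groups and tested with edgeR 4.0.16's robust quasi-likelihood test after TMM scaling, with Benjamini-Hochberg adjustment (R 4.3.3). The depot difference was fitted on 20 sedentary libraries with the animal as a block. Steps were tested on simulated data. Totals of 580173 to 689060 counts make 3 counts worth 4.35 to 5.17 CPM, and intervals cover counting error only. No pair of libraries within a group held identical values. Alternatives were DESeq2 1.42.0, limma 3.58.1 voom, other scalings and filters, and leaving out libraries. Members and gene lists were chosen with earlier results of these data known. Genes were chosen to be named as the 15 lowest adjusted p per direction (log2 fold change past 1 in size, mean log2 CPM from 4 up), the 4 lowest of each list, a watched list, and up to 8 calls of each difference. Not all of them are described above. Left out were, among others, Rac2 (1.53, adjusted p = 6.57e-05) and Wfdc21 (1.05, adjusted p = 1.2e-05), both called higher by edgeR, and the watched genes Pck1, Hmgcs1, Dbp, Arntl and Upk3b. A further 40 list members were named after their values were seen.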

Additional observations from a re-analysis of the deposited data

Results flagged for a closer look

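Among 348 groups of 5 libraries examined, 16 held a mouse set apart from the other four in CPM, and chance gives about 1 in 20. Chow mouse 5 was low in Cox6c (1303, others 1551 to 1649), Atp5c1 (559.6, others 749.8 to 799), Cidea (3.19, others 18.7 to 22.8), Cs (222, others 336 to 359.8) and Etfb (438, others 622 to 680.5), and high in mt-Rnr2 (63707, others 30342 to 36827). HFD mouse 5 was low in mt-Atp6 (6638, others 8575 to 9516) and mt-Cytb (10000.0, others 14183 to 16268). HFD mouse 3 was low in Col3a1 (568, others 805 to 915) and Col1a1 (93.4, others 179 to 223) and high in Apoe (2532, others 1809 to 1945). The remaining mice were chow mouse 3 in Fmo1 (202, others 137 to 148), chow mouse 2 in Crat (106, others 82.7 to 86.2), chow mouse 4 in Lipa (60.9, others 49.98 to 52.1), HFD mouse 1 in Ndufb10 (368, others 327 to 336) and HFD mouse 2 in Idh3b (148, others 175 to 187).

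The diet effect differed between trained and sedentary mice in Dpt, by 1.24 on the log2 scale, and was not called in the run of 12 codes (1.29, adjusted p = 0.24). Between the depots, as visceral minus subcutaneous, it was lower in visceral fat for Myl4 (−2.18), Efemp1 (−2.05), Cavin3 (−1.81), Cfd (−1.70), Retn (−1.52), Cyp2e1 (−1.33), Npr3 (−1.33), Dpt (−1.30), Fmo1 (−1.29), Mest (−1.19), Lep (−1.02) and Aldh6a1 (−0.97). It was higher for Cd72 (4.94), Soat1 (3.80), Lctl (2.24) and Elovl6 (1.70). Leaving out 1 of the 10 animals ended the call in 4 fits for Mest, 6 for Cyp2e1, 7 for Lep, 7 for Aldh6a1 and 8 for Npr3, with adjusted p up to 0.121, 0.154, 0.156, 0.137 and 0.202. Cd72, a surface protein of B cells, was at 4.17 to 73.4 CPM in subcutaneous chow mice, 3 of which held lymph node reads, whose part was not tested. On HFD its subcutaneous level was 0 to 12.5 CPM. In visceral fat all chow mice were at or below the level of 3 counts, at 1.63 to 4.68 CPM. Visceral HFD mice 1 to 5 were at 13.5, 3.23, 3.01, 31.9 and 50.8 CPM.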

How the results depend on the processing

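The 563 sedentary calls numbered 483 to 712 with other tests, filters or samples, 823 on total counts, and 354 (without HFD mouse 5) to 628 (without HFD mouse 2) when 1 mouse was left out. Alternatives chosen after seeing the data gave 294 with the library run as a term and 87 in the run of 12 codes. The codes alone show no gap, so the planned run from codes alone could not be made. The trained count of 183 became 322 on total counts and 117 (without HFD trained mouse 2) to 182 when 1 mouse was left out. The interaction count of 1 became 11 with DESeq2, 34 without a filter, 11 with the run term, 8 with the replicate block and 1 to 11 when 1 mouse was left out. The depot count of 82 became 19 without the animal block and 32 (without mouse 5 on HFD) to 204 (without mouse 1 on chow), with 34, 38 and 42 without chow mice 4, 5 and 2. The mitochondrial share difference was −6.21 to −7.70 points when 1 mouse was left out and −8.02 (exact permutation p = 0.0667) in the run of 12. Replicate numbers did not pair the mice (correlations of deviations 0.13, 0.16, −0.13, 0.05 and −0.13 for numbers 1 to 5; only 1 and 2 correlated best with their own number), and the replicate block gave 504 sedentary and 164 trained calls. Signs turned for Lpl on total counts (0.054), Myl3 (1.14) and Tnni3 (1.95) with the run term, Srebf1 without chow mice 3, 4 and 5 and HFD mouse 3 (−0.15 to 0.24 when 1 mouse was left out), and Myl4 without chow mice 4 and 5 (−0.073 to 0.36). The causes were not tested. Depth limits low genes such as Tnf, Il6 and Itgax.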

Other observations

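Several genes outside the groups described above were called. Oxtr, the oxytocin receptor, was at 5.17, 1.63, 8.76, 9.36 and 14.3 CPM in chow mice 1 to 5 and at 34.4, 33.9, 33.1, 43.5 and 68.8 CPM in HFD mice 1 to 5, with no overlap, and rose by 2.20 (SE 0.35, adjusted p = 7.63e-05) in edgeR's test. Atp1a4, a sodium pump subunit best known from sperm, was at 0 to 3.45 CPM on chow, where each library lay below the level of 3 counts, and at 9.68 to 63.9 on HFD, and its fitted change was 4.05 (SE 0.55, adjusted p = 1.2e-05). Paqr9, a membrane receptor of the progestin and adipoQ receptor family, was at 15.5 to 30.7 CPM on chow and 61.3 to 121 CPM on HFD and rose by 1.73 (SE 0.28, adjusted p = 0.00018). Gask1b, a secreted Golgi-associated protein, was at 16.3 to 38.3 CPM on chow and 72.3 to 121 CPM on HFD and rose by 1.66 (SE 0.23, adjusted p = 1.05e-05), and was at 0.20 (adjusted p = 0.775) in trained mice. Oxtr was at 1.44 (adjusted p = 0.104) and Atp1a4 at 3.65 (adjusted p = 0.113) in the run of 12 codes, neither called, and Paqr9 (1.64, adjusted p = 0.00924) and Gask1b (1.26, adjusted p = 0.0167) were called. The test of the difference called neither Paqr9 nor Gask1b. Trf, transferrin, the iron carrier, fell by 1.03 (SE 0.16, adjusted p = 0.000128), and P4ha2, a prolyl hydroxylase of collagen, rose by 1.03 (SE 0.24, adjusted p = 0.00544).

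In the lists of other immune cells 2 genes were called. Ighm, the heavy chain of immunoglobulin M, was at 581, 365, 419, 844 and 276 CPM on chow and at 1996, 1522, 1483, 1991 and 1480.1 CPM on HFD, rose by 1.57 (SE 0.25, adjusted p = 0.000607) and was at 3.23 (adjusted p = 8.85e-07) in trained mice. The other two tested genes of the B cell list were not called, and reads of that list without Ighm were 6 to 297 on chow and 87 to 191 on HFD. S100a8, a calcium-binding protein of neutrophils, was at 15.5, 13.02, 17.5, 18.7 and 17.5 CPM on chow and 108, 59.7, 40.7, 157 and 263 CPM on HFD and rose by 2.71 (SE 0.46, adjusted p = 0.0013). It was highest in HFD mouse 5, as was the summed level of macrophage markers. It was the sole tested gene of the neutrophil list. Neither was called in the run of 12 codes, with Ighm at 1.49 (adjusted p = 0.139) and S100a8 at 2.17 (adjusted p = 0.144). No T or NK cell gene passed the filter on low counts.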
